A study of Homo sapiens with 12 samples.

Results

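The genes described here are the solute carriers, taken from the count table as every row whose symbol, without a hyphen, starts with SLC, a family number, A and a member number, or with SLCO and a number. The rule found 123 of the 8579 genes in the table, of which 118 are carriers and 5 are not (an antisense gene, a gene on the strand opposite a carrier and 3 pseudogenes). The choice uses names and no measured value. RNA came from A375, an established human melanoma cell line with an activating BRAF mutation, so each value describes 1 line in culture. Cells received SEL201 at 2.5 µM (group SEL201), OTX015 at 50 nM (group OTX015), both agents at these doses (group COMBO) or the solvent DMSO alone (group UNTREATED) for 72 hours, with 3 libraries per group. SEL201 inhibits the MNK kinases, which phosphorylate the translation initiation factor eIF4E, and OTX015 inhibits BET proteins, which read acetylated histones at active genes. The question addressed is what each agent, and the pair, changed in the RNA of membrane transporters.

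Solute carriers are membrane proteins that move sugars, amino acids, monocarboxylates, nucleotides, metals and inorganic ions across the plasma membrane and the membranes of organelles, by facilitated diffusion or coupled to an ion gradient, without splitting ATP. The SLC25 family sits mostly in the inner mitochondrial membrane, and the SLC16 family includes carriers of lactate, pyruvate and related acids, though not every member carries these. In melanoma cells, as in other proliferating cells, nutrient uptake, lactate export and the control of ions and metals all depend on them.

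All 123 genes passed the filter on low counts, with single-library counts from 13 for SLC2A12 to 10523 for SLC12A7. Library totals over the genes of the table ran from 15146071 to 24111541 counts. Solute carriers took 1.49% ± 0.00477 of these counts in SEL201, 1.486% ± 0.00955 in OTX015, 1.483% ± 0.00917 in COMBO and 1.5% ± 0.0188 in UNTREATED (mean ± SD, n = 3). Of 13 melanocyte and melanoma markers, 7 were in the table, with MITF at a mean of 155, GPNMB at 306, PMEL at 4.85 and MLANA at 5.36 CPM, the counts scaled to the library total. Their summed level was 544 to 569 CPM in SEL201, 531 to 557 in OTX015, 503 to 506 in COMBO and 682 to 746 in UNTREATED. For 4 of 6 fibroblast markers the sum was 109 to 128, 91.2 to 93.9 and 76.2 to 84 CPM in SEL201, OTX015 and COMBO, against 125 to 167 CPM in UNTREATED. The leukocyte marker LYZ, the only one measured of 6, had 29.3 to 32.4 CPM in SEL201, 21.3 to 24.3 in OTX015, 19.5 to 22.6 in COMBO and 39.2 to 50.2 in UNTREATED. The epithelial marker KRT8, 1 of 4 listed, had 120 to 127, 107 to 115 and 93.1 to 102 CPM in SEL201, OTX015 and COMBO, against 193 to 204 CPM in UNTREATED. The endothelial marker KDR, 1 of 4 listed, overlapped between groups, at 66.1 to 109, 70.6 to 121 and 101 to 157 CPM in SEL201, OTX015 and COMBO and 81 to 142 CPM in UNTREATED. The part of these shifts in the results below was not tested.

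The count table holds only genes with mean counts from 78.667 to 9158.7, so carriers absent from it were not ranked. Per kb of exon, SLC50A1, a sugar transporter of the SWEET family, ranked highest of the 123 genes. It had 139.9 CPM per kb over all libraries. The next were SLC25A20, the mitochondrial carnitine and acylcarnitine carrier, at 115.4 and SLC25A17, a peroxisomal carrier, at 88.04 CPM per kb. SLC39A13, a zinc transporter of the secretory pathway, had 83.8, SLC25A33, a mitochondrial pyrimidine nucleotide carrier, had 83.18 and SLC25A28, the iron carrier mitoferrin 2, had 76.79 CPM per kb. The log2 changes of these 6 genes with COMBO against UNTREATED lay between -0.09 for SLC39A13 and 0.12 for SLC25A17. Neither of those passed the threshold used below (edgeR adjusted p = 0.357 and 0.0879), and both passed with the replicate number as a block (adjusted p = 0.032 and 0.00338). SLC50A1 had 355, 348 and 323 CPM in COMBO, against 311, 324 and 315 CPM in UNTREATED, so the groups overlapped although the change of 0.11 on the log2 scale passed (SE 0.0448, edgeR adjusted p = 0.0444). That call was lost without COMBO replicate 1, COMBO replicate 2, UNTREATED replicate 1 or UNTREATED replicate 3 (adjusted p 0.164, 0.122, 0.127 and 0.0923 in edgeR). At the other end, SLC24A2, a potassium-dependent sodium and calcium exchanger, had 0.6578 CPM per kb.

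Changes are given as log2 ratios of CPM, where 1 is a doubling, with a standard error (SE) and an edgeR p-value adjusted over all 8579 genes, and a gene rose or fell where that value was under 0.05. With COMBO against UNTREATED, 38 of 123 solute carrier genes rose and 37 fell, while over all genes 28.3% rose and 29.6% fell. With OTX015 against UNTREATED, 33 rose and 34 fell, beside 23.3% and 24.7% of all genes. With SEL201 against UNTREATED, 14 rose and 18 fell, beside 10.1% and 11.1% of all genes, and with the replicate number as a block these became 24 and 31 of the 123, beside 18% and 19.1% of all genes. The shares called among solute carriers were 26% with SEL201, 54.5% with OTX015 and 61% with COMBO, beside 21.2%, 48% and 57.8% of all genes. Without UNTREATED replicate 1 the number that fell with SEL201 was 11. The median log2 change of the 123 genes was -0.01 with SEL201, -0.05 with OTX015 and -0.05 with COMBO. A change of at least 2-fold was reached by 3 rising and 7 falling genes with COMBO, beside 2.03% and 6.81% of all genes. These are bulk libraries, so fewer cells with a transcript and less of it per cell cannot be told apart.

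**Figure D1:**
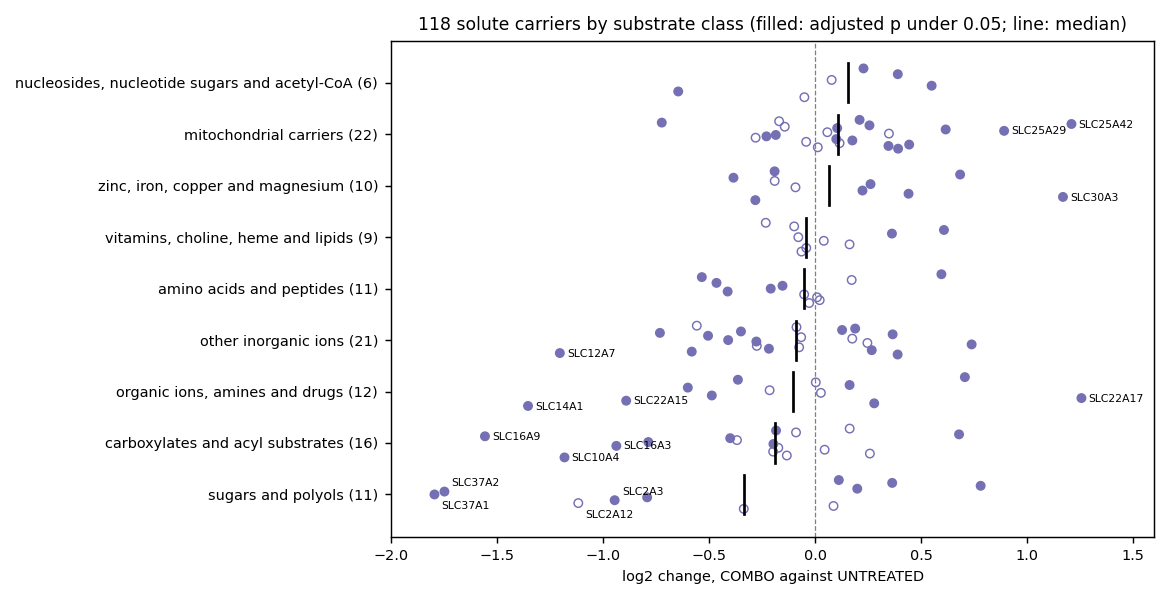
Log2 change of 118 solute carriers with COMBO against UNTREATED (x axis), by substrate class (y axis, number of genes in brackets); each point is 1 gene, filled where the edgeR adjusted p was under 0.05, and the line is the class median. Mitochondrial carriers are the SLC25 genes, among them the peroxisomal carrier SLC25A17, and have a median of 0.11 with 11 genes up (50%). Carriers of carboxylates have a median of -0.19 with 7 down (43.8%), 5 of them SLC16 genes. Of all genes, 28.3% rose and 29.6% fell.

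Mitochondrial carriers, here all measured SLC25 genes, rose more often than they fell. The class includes the peroxisomal carrier SLC25A17, which was not called with COMBO without the block. Of 22 genes of the SLC25 family, 11 rose (50%) and 3 fell (13.6%) with COMBO, beside 28.3% and 29.6% of all genes. OTX015 gave 10 rises (45.5%) and 4 falls (18.2%), beside 23.3% and 24.7% of all genes. SEL201 gave 4 rises (18.2%) and 0 falls by edgeR, beside 10.1% and 11.1% of all genes. The falls with SEL201 numbered 1 at an unadjusted edgeR p under 0.05, 1 by DESeq2 and 2 with the replicate block. The rises with SEL201 numbered 7 with the block, beside 18% of all genes. The family's median log2 change was 0.11 with COMBO, against 0.00 for all genes. SLC25A42, which brings coenzyme A into mitochondria in exchange for adenine nucleotides, had 34.1, 41.1 and 36.7 CPM in SEL201, 46.4, 36.8 and 39.1 CPM in OTX015, 63.1, 58.6 and 59.5 CPM in COMBO and 26.3, 26.1 and 26 CPM in UNTREATED. All 9 treated libraries were above all 3 UNTREATED libraries, and the COMBO libraries were above the other 9. The level with COMBO was 2.31-fold that of UNTREATED (log2 change 1.21, SE 0.0942, edgeR adjusted p = 9.76e-08). It also rose by 0.51 with SEL201 (adjusted p = 0.00167) and by 0.64 with OTX015 (adjusted p = 7.53e-05 in edgeR).

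SLC25A29, which carries arginine and lysine into mitochondria, had 162, 156 and 148 CPM in SEL201, 171, 175 and 177 CPM in OTX015, 202, 215 and 223 CPM in COMBO and 116, 118 and 111 CPM in UNTREATED. The 4 groups did not overlap. Its log2 changes against UNTREATED were 0.43 with SEL201, 0.60 with OTX015 and 0.89 with COMBO (SE 0.0511 each, edgeR adjusted p = 5.86e-05, 4.97e-07 and 4.79e-09). SLC25A30, another inner-membrane carrier, had 298, 294 and 298 CPM in SEL201, 339, 337 and 360 CPM in OTX015, 372, 371 and 370 CPM in COMBO and 241, 249 and 236 CPM in UNTREATED. Its groups were likewise separate, with log2 changes of 0.29, 0.51 and 0.62 for SEL201, OTX015 and COMBO (edgeR adjusted p = 9.09e-05, 1.08e-07 and 7.22e-09).

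Smaller rises with COMBO were those of SLC25A16 (log2 change 0.44), the dicarboxylate carrier gene SLC25A10 (0.39) and SLC25A14 (0.35). The carrier genes for glutathione, SLC25A40, and NAD, SLC25A51, had log2 changes of 0.26 and 0.21, both past the threshold in edgeR. The SLC25A51 call was lost without COMBO replicate 3 (adjusted p = 0.0709). SLC25A43 went the other way, with 89.9, 84.7 and 78.4 CPM in SEL201, 65.8, 70.8 and 76 CPM in OTX015, 58.5, 63.8 and 54.7 CPM in COMBO and 96.2, 96.6 and 99.6 CPM in UNTREATED. Every COMBO library was below every other library, and the log2 change with COMBO was -0.72 (edgeR adjusted p = 1.64e-06). SLC25A26, the S-adenosylmethionine carrier gene, and SLC25A23, an ATP-magnesium and phosphate carrier gene, fell by 0.18 and 0.23. The SLC25A23 call was lost without UNTREATED replicate 1 (adjusted p = 0.051) or 2 (adjusted p = 0.0623). In the annotation used here, SLC25A10 shares 46.6% of its exon bases with another gene on its own strand, so its counts are uncertain.

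Genes of the SLC16 family that passed the threshold were lower in the treated cells. Of 8 measured SLC16 genes, 4 fell with SEL201 (50%), 4 with OTX015 (50%) and 5 with COMBO (62.5%). Of all genes, 11.1%, 24.7% and 29.6% fell. The number of SLC16 genes that rose was 0 in each case by edgeR, at an unadjusted edgeR p under 0.05 and by DESeq2. Of all genes, 10.1%, 23.3% and 28.3% rose by edgeR. The median log2 change of the 8 SLC16 genes with COMBO was -0.38. SLC16A3 encodes MCT4, the carrier by which glycolytic cells export lactate. It had 49.6, 50.3 and 60.1 CPM in SEL201, 59.8, 54.6 and 55 CPM in OTX015, 45.3, 41.7 and 45.3 CPM in COMBO and 86.9, 80.7 and 85.5 CPM in UNTREATED. The UNTREATED libraries were the 3 highest, the COMBO libraries the 3 lowest, and those of the single agents overlapped. SLC16A3 had log2 changes of -0.66 with SEL201, -0.58 with OTX015 and -0.94 with COMBO (SE 0.0802, 0.0799 and 0.0809, edgeR adjusted p = 6.73e-05, 4.18e-05 and 2.48e-07), which with COMBO is a 1.91-fold lower level. SLC16A4 and SLC16A7 both lost their SEL201 call without SEL201 replicate 2 or 3 or UNTREATED replicate 1 or 2 (edgeR adjusted p 0.0526 to 0.126), which leaves 2 of the 4.

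SLC16A5, which encodes MCT6, had 96.9, 105 and 90.4 CPM in SEL201, 87, 85.2 and 82.9 CPM in OTX015, 66.3, 73.2 and 70 CPM in COMBO and 120, 123 and 119 CPM in UNTREATED. No group overlapped another, and the log2 change with COMBO was -0.79 (SE 0.0625, edgeR adjusted p = 1.15e-07). SLC16A9, which encodes MCT9, had 10.6, 9.76 and 9.82 CPM in SEL201, 5.01, 5.02 and 5.34 CPM in OTX015, 4.7, 4.85 and 3.7 CPM in COMBO and 15.3, 14.6 and 9.33 CPM in UNTREATED. The lowest UNTREATED library lay below the SEL201 libraries, and the OTX015 and COMBO libraries were below all others. SLC16A9 fell by 1.36 with OTX015 and by 1.56 with COMBO (edgeR adjusted p = 2.6e-05 and 4.55e-06), and its SEL201 value of -0.38 missed the threshold (adjusted p = 0.129) and passed with the replicate block (adjusted p = 0.0434). SLC16A7, which encodes the high-affinity carrier MCT2, fell by 0.40 with COMBO and by 0.29 with OTX015. SLC16A4 fell by 0.20 with COMBO, a call lost without COMBO replicate 2 or 3 or UNTREATED replicate 1 or 2 (edgeR adjusted p 0.0736, 0.073, 0.0529 and 0.0649). SLC16A6, SLC16A10 and SLC16A13 did not pass with COMBO, at log2 changes of -0.37, 0.05 and -0.17, and SLC16A13 passed with the replicate block (adjusted p = 0.0449 in edgeR).

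The wider class of carriers for carboxylates and acyl substrates had 16 measured genes. Of these, 1 rose (6.25%) and 7 fell (43.8%) with COMBO, beside 28.3% and 29.6% of all genes. The replicate block gave 2 and 9. Of the 7 falls, 5 are the SLC16 falls given above, and the others are SLC10A4 and SLC27A5. The SLC27A5 call was lost in 7 of 13 alternatives. Without the block, the gene that rose was SLC27A1, which encodes the fatty acid transport protein FATP1. SLC27A1 had 187, 190 and 184 CPM in SEL201, 200, 197 and 177 CPM in OTX015, 220, 219 and 224 CPM in COMBO and 136, 139 and 140 CPM in UNTREATED. All COMBO libraries were the highest and all UNTREATED libraries the lowest, with a log2 change of 0.68 with COMBO (SE 0.0482, edgeR adjusted p = 3.67e-08). SLC10A4, an orphan member of the bile acid carrier family, fell by 1.18 with COMBO and by 1.12 with OTX015, at low levels of 4.52 to 5.22 CPM in COMBO and 4.97 to 5.23 CPM in OTX015, against 9.28 to 13.5 CPM in UNTREATED. SLC13A5, which imports citrate, fell with SEL201 and had 7.22, 4.96 and 7.32 CPM there, 8.92, 7.94 and 9.2 CPM in OTX015, 9.61, 8.37 and 8.6 CPM in COMBO and 10.4, 9.54 and 10.6 CPM in UNTREATED. Only its SEL201 libraries were all below the rest, and the log2 change there was -0.65 (SE 0.151, edgeR adjusted p = 0.00746) against -0.23 with OTX015 (adjusted p = 0.223) and -0.20 with COMBO (adjusted p = 0.272).

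**Figure D2:**
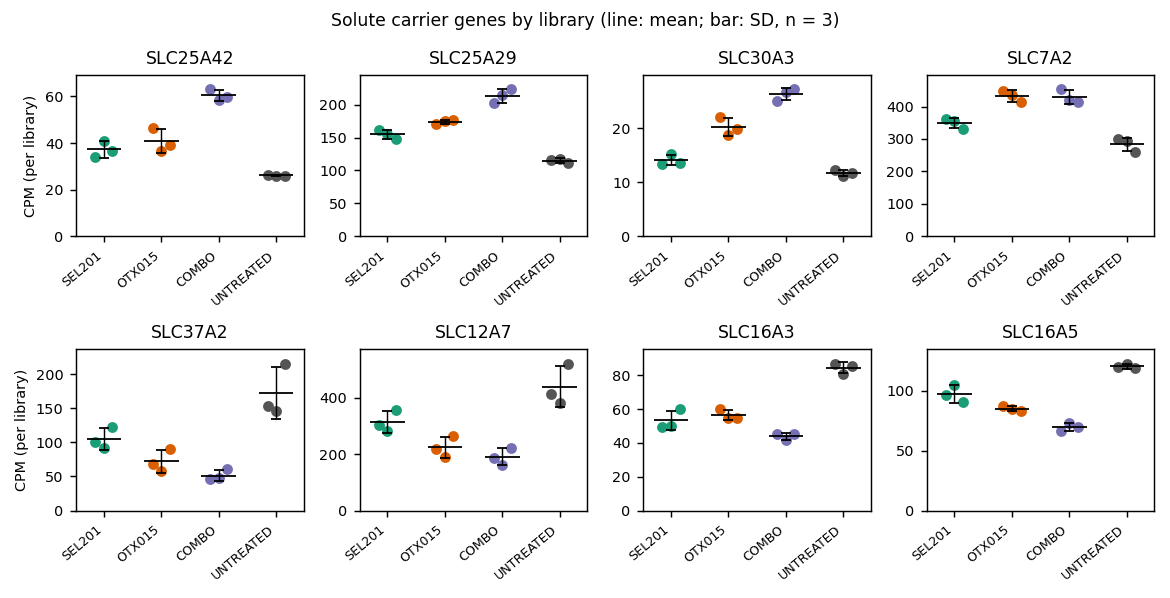
CPM (y axis, from 0) of 8 solute carrier genes in each of 12 libraries (points), by group (x axis), with the mean (line) and SD (bar, n = 3). SLC25A42, SLC25A29 and SLC30A3 are highest in COMBO, SLC7A2 is about as high in OTX015 as in COMBO, and SLC37A2, SLC12A7, SLC16A3 and SLC16A5 are highest in UNTREATED.

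Among 11 carriers of sugars and polyols, 4 rose and 4 fell with COMBO (36.4% each), beside 28.3% and 29.6% of all genes. The falls were the larger changes. SLC37A1 and SLC37A2 encode exchangers of sugar phosphates for phosphate in the endoplasmic reticulum. SLC37A1 had 7.48, 7.16 and 9.39 CPM in SEL201, 3.48, 3.51 and 5.79 CPM in OTX015, 3.71, 3.1 and 3.97 CPM in COMBO and 11.8, 11.7 and 13.7 CPM in UNTREATED. SLC37A2 had 101, 91 and 122 CPM in SEL201, 68.7, 57.7 and 89.9 CPM in OTX015, 46.4, 47.2 and 60.3 CPM in COMBO and 154, 146 and 215 CPM in UNTREATED. For both genes the UNTREATED libraries were the 3 highest, and in each group of SLC37A2 the library numbered 3 was the highest. SLC37A1 fell by 1.79 with COMBO, a 3.47-fold lower level (SE 0.198, edgeR adjusted p = 2.79e-06), and SLC37A2 fell by 1.75, a 3.36-fold lower level (SE 0.179, edgeR adjusted p = 1.31e-06). The third measured family member, SLC37A4, the glucose 6-phosphate translocase, rose by 0.20 (adjusted p = 0.00186 in edgeR).

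Of 5 measured SLC2 genes, the facilitative sugar transporters, 2 fell with COMBO by edgeR (40%), beside 29.6% of all genes. The number of SLC2 genes that rose was 0 by edgeR, at an unadjusted edgeR p under 0.05 and by DESeq2. Of all genes, 28.3% rose by edgeR. SLC2A3, which encodes the high-affinity glucose transporter GLUT3 and has a near-identical copy that may share its reads, had 208, 233 and 174 CPM in SEL201, 165, 203 and 146 CPM in OTX015, 140, 160 and 116 CPM in COMBO and 259, 295 and 247 CPM in UNTREATED. No treated library reached the UNTREATED libraries, the COMBO libraries were all below those of SEL201, and OTX015 overlapped both. SLC2A3 fell by 0.94 with COMBO and by 0.64 with OTX015 (edgeR adjusted p = 3.1e-05 and 0.00116), while its SEL201 value of -0.38 missed the threshold (adjusted p = 0.0557) and passed with the replicate block (adjusted p = 1.75e-08). SLC2A6, which encodes the lysosomal transporter GLUT6, fell by 0.28 with SEL201, by 0.61 with OTX015 and by 0.79 with COMBO. SLC2A12 had a log2 change of -1.12 with COMBO, not past the threshold without the replicate block (edgeR adjusted p = 0.0522) and past it with the block (4.49e-06), at 3.02, 4.76 and 0.86 CPM in COMBO, against 6.48, 9.21 and 3.67 CPM in UNTREATED. Sugar transporter genes of the SLC45 family rose, SLC45A1 by 0.78 and SLC45A4 by 0.36 with COMBO.

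The promoters of 2 genes that rose and of 2 that fell with COMBO are shown so that they can be read side by side. These genes were picked by hand. SLC16A9, SLC14A1, SLC12A7 and SLC10A4, not shown, fell more than SLC16A3. All promoters come from RefSeq (build GRCh38.p14), where 97 of the 123 symbols had an entry. Each run is the 250 bases before the annotated start, 5′ to 3′ on the gene's strand. Capitals mark matches, on either strand, to 3 short motifs: the CCAAT box (CCAAT), the GC box (GGGCGG) and the E-box (CACGTG).
SLC25A42, which rose, chr19:19063744-19063993, plus strand: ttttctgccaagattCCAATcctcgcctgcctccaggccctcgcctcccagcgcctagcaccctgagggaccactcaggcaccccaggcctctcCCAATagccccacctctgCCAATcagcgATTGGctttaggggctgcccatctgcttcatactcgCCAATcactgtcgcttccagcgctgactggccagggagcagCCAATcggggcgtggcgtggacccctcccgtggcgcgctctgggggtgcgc
SLC25A29, which rose, chr14:100306445-100306694, minus strand: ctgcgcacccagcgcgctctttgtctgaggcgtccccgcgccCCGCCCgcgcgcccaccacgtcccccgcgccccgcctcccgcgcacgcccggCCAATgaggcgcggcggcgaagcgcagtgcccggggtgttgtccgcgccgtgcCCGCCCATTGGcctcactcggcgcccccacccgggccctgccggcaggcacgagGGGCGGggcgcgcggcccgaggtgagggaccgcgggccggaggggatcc
SLC16A3, which fell, chr17:82228185-82228434, plus strand: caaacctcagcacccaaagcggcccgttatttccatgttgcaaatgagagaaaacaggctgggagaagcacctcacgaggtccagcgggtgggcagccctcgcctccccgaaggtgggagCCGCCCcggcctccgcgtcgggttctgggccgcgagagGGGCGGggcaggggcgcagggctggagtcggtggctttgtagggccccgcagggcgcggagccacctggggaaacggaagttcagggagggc
SLC37A1, which fell, chr21:42499372-42499621, plus strand: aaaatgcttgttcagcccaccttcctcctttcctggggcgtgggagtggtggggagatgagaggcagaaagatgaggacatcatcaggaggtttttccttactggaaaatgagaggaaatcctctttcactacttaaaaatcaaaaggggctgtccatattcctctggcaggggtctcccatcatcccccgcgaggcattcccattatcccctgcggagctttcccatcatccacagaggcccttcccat

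The SLC25A42 window holds 6 CCAAT matches, the SLC25A29 window 2, and the windows of SLC16A3 and SLC37A1 hold 0 matches to these letters. Among genes not shown, SLC22A17 and SLC30A3, which rose, have 1 CCAAT match each. Of those that fell, SLC10A4 has 1, and SLC16A9, SLC14A1 and SLC12A7 have 0. GC box matches number 3 for SLC25A29 and 2 for SLC16A3. A CCAAT match occurs in 12 of 27 promoters of solute carrier genes that rose with COMBO (44.4%), in 7 of 31 of those that fell (22.6%) and in 32% of all 35116 promoters of the reference set. A GC box match occurs in 74.1% of promoters of the genes that rose, 54.8% of those that fell and 42.6% of all, or 60.3% of those whose genes are in the count table. An E-box match occurs in 3 of 27 promoters of genes that rose (11.1%) and 4 of 31 of those that fell (12.9%). The E-box share is 6.34% of all, or 7.64% of those whose genes are in the count table. These shares were not tested, and the CCAAT box was added after the SLC25A42 sequence had been read. A match is a run of letters and not a bound site.

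Amino acid and peptide carriers had 11 measured genes. Of these, 1 rose (9.09%) and 5 fell (45.5%) with COMBO, beside 28.3% and 29.6% of all genes. The replicate block gave 2 and 5. Without the block, the rise was that of SLC7A2, which encodes the cationic amino acid transporter CAT2, the importer of arginine, lysine and ornithine. SLC7A2 had 361, 357 and 331 CPM in SEL201, 447, 437 and 413 CPM in OTX015, 453, 421 and 414 CPM in COMBO and 299, 293 and 261 CPM in UNTREATED. The OTX015 and COMBO libraries overlapped and were above those of SEL201, which were above those of UNTREATED. The log2 changes were 0.30, 0.61 and 0.60 with SEL201, OTX015 and COMBO (SE 0.0566, 0.0566 and 0.0567, edgeR adjusted p = 0.002, 1.16e-06 and 6.3e-07).

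SLC6A9, which encodes the glycine transporter GLYT1, had 246, 227 and 230 CPM in SEL201, 167, 140 and 154 CPM in OTX015, 159, 142 and 140 CPM in COMBO and 226, 188 and 225 CPM in UNTREATED. The OTX015 and COMBO libraries were below the others, and SLC6A9 fell by 0.47 and 0.53 (edgeR adjusted p = 2.35e-04 and 5.18e-05). With SEL201 its log2 change was 0.14, not past the threshold (adjusted p = 0.244), and it passed with the replicate block (adjusted p = 0.0116). SLC43A1, a carrier of branched-chain amino acids, fell by 0.46 with COMBO, and SLC38A6 by 0.41. The lysosomal genes SLC38A7, which exports glutamine, and SLC38A9, which signals arginine to mTORC1, fell by 0.21 and 0.15.

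Carriers of zinc, iron, copper and magnesium had 10 measured genes. Of these, 5 rose (50%) and 3 fell (30%) with COMBO, beside 28.3% and 29.6% of all genes. The replicate block gave 5 and 5. SLC30A3 encodes ZnT3, which loads zinc into vesicles and is best known from neurons. It had 13.5, 15.3 and 13.7 CPM in SEL201, 22.2, 18.8 and 19.9 CPM in OTX015, 25.1, 26.7 and 27.3 CPM in COMBO and 12.4, 11.1 and 11.7 CPM in UNTREATED, and no group overlapped another. With COMBO its level was 2.25-fold that of UNTREATED (log2 change 1.17, SE 0.0994, edgeR adjusted p = 2.16e-07), and with OTX015 it rose by 0.79 (adjusted p = 1.82e-05). SLC41A2, a magnesium transporter gene, had 136, 130 and 138 CPM in SEL201, 175, 172 and 185 CPM in OTX015, 192, 176 and 203 CPM in COMBO and 125, 116 and 114 CPM in UNTREATED. Each agent's libraries were above those of UNTREATED, and the log2 change with COMBO was 0.68 (SE 0.0586, edgeR adjusted p = 2.29e-07).

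SLC30A4, another zinc exporter gene, rose by 0.44 with COMBO. Importers of zinc were divided, with SLC39A3 and SLC39A11 up by 0.26 and 0.22 and SLC39A8, which encodes the zinc and manganese importer ZIP8, down. SLC39A8 had 358, 355 and 373 CPM in SEL201, 328, 324 and 348 CPM in OTX015, 313, 313 and 328 CPM in COMBO and 397, 419 and 429 CPM in UNTREATED, so that all treated libraries were below all UNTREATED libraries. Its log2 change with COMBO was -0.38 (SE 0.0419, edgeR adjusted p = 2.48e-06). SLC11A2, the iron importer gene DMT1, fell by 0.28 with OTX015 and by 0.28 with COMBO (edgeR adjusted p = 9.14e-05 and 5.16e-05), and had a log2 change of -0.04 with SEL201.

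The class of protons, sodium, chloride, bicarbonate, phosphate, sulfate and calcium had 21 measured genes. Of these, 6 rose (28.6%) and 8 fell (38.1%) with COMBO, beside 28.3% and 29.6% of all genes. SLC12A7, which encodes the potassium and chloride cotransporter KCC4, had 304, 281 and 358 CPM in SEL201, 220, 190 and 265 CPM in OTX015, 187, 163 and 224 CPM in COMBO and 413, 384 and 522 CPM in UNTREATED. The UNTREATED libraries were the 3 highest, the OTX015 and COMBO libraries overlapped, and in each group the library numbered 3 was the highest. With COMBO the level was 2.3-fold lower (log2 change -1.20, SE 0.143, edgeR adjusted p = 5.68e-06). The SEL201 change of -0.48 (adjusted p = 0.0239) lost its call without SEL201 replicate 1, SEL201 replicate 2 or UNTREATED replicate 3 (edgeR adjusted p 0.0788, 0.0957 and 0.101). In the same family, SLC12A8 fell by 0.58 and SLC12A9 rose by 0.27 with COMBO.

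Sodium and calcium exchangers also differed among themselves. SLC24A3 rose by 0.74 with COMBO and by 0.63 with SEL201 (edgeR adjusted p = 4.91e-04 and 0.00641). SLC24A2 had 9.68, 11.4 and 9.88 CPM in SEL201, 4.96, 5.84 and 5.34 CPM in OTX015, 5.95, 5.55 and 5.56 CPM in COMBO and 6.48, 6.47 and 7.74 CPM in UNTREATED. Its SEL201 libraries were above all others, with a log2 change of 0.58 with SEL201 (SE 0.132, edgeR adjusted p = 0.00612) and one of -0.35 with OTX015 (SE 0.137, adjusted p = 0.0466). The OTX015 call was lost in 8 of 12 alternatives, among them without OTX015 replicate 1 or 3 (adjusted p 0.14 and 0.0998) and without UNTREATED replicate 1, 2 or 3 (0.059, 0.0554 and 0.182). SLC8A1, which encodes the sodium and calcium exchanger NCX1, fell by 0.73 with COMBO, and SLC4A3, a chloride and bicarbonate exchanger gene, fell by 0.50.

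Among 12 carriers of organic ions, amines and drugs, 4 rose (33.3%) and 5 fell (41.7%) with COMBO, beside 28.3% and 29.6% of all genes. SLC22A17, known as a receptor for lipocalin 2, had 5.9, 8.06 and 6.59 CPM in SEL201, 10.2, 10.9 and 10.3 CPM in OTX015, 12.1, 13.5 and 12.1 CPM in COMBO and 5.79, 4.94 and 5.06 CPM in UNTREATED. No group overlapped another, and the COMBO level was 2.39-fold that of UNTREATED (log2 change 1.26, SE 0.137, edgeR adjusted p = 2.54e-06), the largest rise among the 123 genes. SLC14A1, a urea transporter gene, had 82.3, 74.1 and 120 CPM in SEL201, 70.2, 68.7 and 95.6 CPM in OTX015, 58.9, 55.7 and 78 CPM in COMBO and 148, 133 and 209 CPM in UNTREATED. Its treated groups overlapped one another and lay below UNTREATED, and in each group the library numbered 3 was the highest. SLC14A1 fell by 0.83 with SEL201, by 1.06 with OTX015 and by 1.35 with COMBO (SE 0.199, 0.2 and 0.203, edgeR adjusted p = 0.00865, 5.67e-04 and 5.25e-05).

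SLC22A15 and SLC22A5, the second of which encodes the carnitine importer OCTN2, fell by 0.89 and 0.60 with COMBO. SLCO5A1, an organic anion transporter gene, rose by 0.71. The nucleoside, nucleotide sugar and acetyl-CoA class had 6 genes. Of these, 3 rose (50%) and 1 fell (16.7%) with COMBO, beside 28.3% and 29.6% of all genes. SLC35A1 (log2 change 0.39) and SLC35A3 (0.23) carry nucleotide sugars into the Golgi. SLC29A4 (0.55) encodes a monoamine and nucleoside transporter, and SLC29A3 (-0.64) encodes the lysosomal nucleoside transporter ENT3. The SLC29A4 call was lost without UNTREATED replicate 3 (edgeR adjusted p = 0.0571). SLC35A1 shares 55.5% of its exon bases with another annotated gene on its strand and is uncertain. Of 9 carriers of vitamins, choline, heme and lipids, 2 rose with COMBO (22.2%), beside 28.3% of all genes. They were the lysosomal SLC46A3 (0.61) and the folate carrier gene SLC46A1 (0.36). The rest of that class lay between -0.23 for SLC49A3 and 0.16 for SLC23A3. SLC49A3 and the heme transporter gene SLC48A1 (-0.10) passed as lower with COMBO under the replicate block (edgeR adjusted p = 0.0369 and 0.0316), and SLC48A1 fell by 0.20 with SEL201 (adjusted p = 0.00603). SLC46A1 shares 61.5% of its exon bases with genes on the other strand, and whether the counting used strand is not given in the sources used here.

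Of the 5 symbols that name no carrier, SLC22A18AS, an antisense gene, had the largest change of all 123 genes. It had 7.61, 4.96 and 6.28 CPM in SEL201, 4.43, 4.74 and 4.93 CPM in OTX015, 2.28, 1.99 and 2.18 CPM in COMBO and 8.23, 8.88 and 9.13 CPM in UNTREATED. The COMBO libraries were below all others, and the level was 4.06-fold lower than in UNTREATED (log2 change -2.02, SE 0.174, edgeR adjusted p = 2.42e-07). Its sense partner SLC22A18, an organic cation transporter gene, had 20.7, 20.3 and 18.5 CPM in COMBO, against 28, 28.1 and 27.2 CPM in UNTREATED (log2 change -0.49, edgeR adjusted p = 4.29e-04), and they overlap in 12.7% of the exon bases of SLC22A18AS. The pseudogene SLC6A10P, whose reads may come from its parent gene, rose by 0.52 with COMBO.

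**Figure D3:**
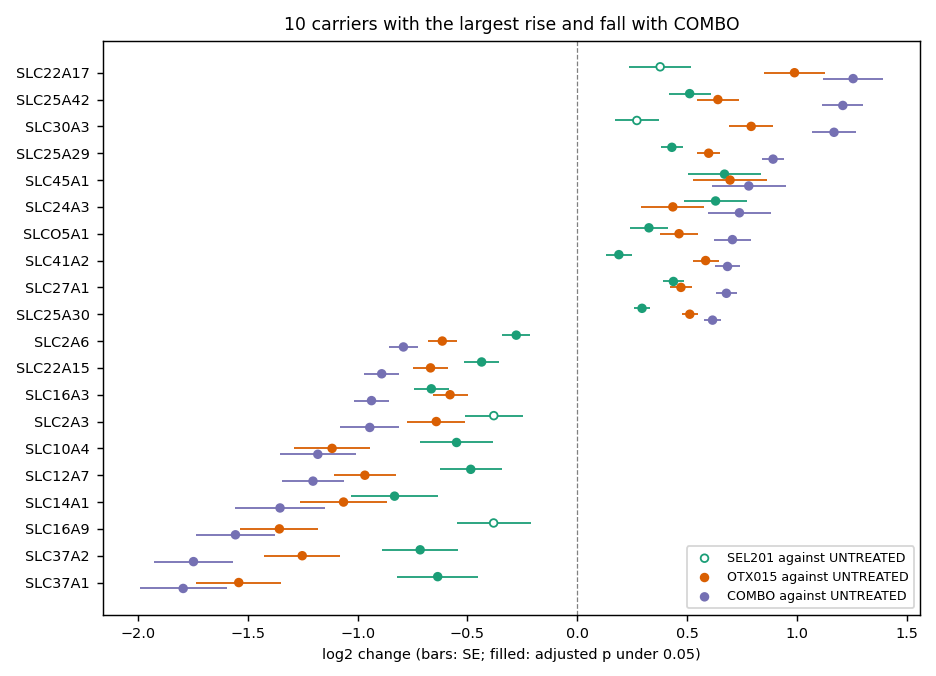
Log2 change (x axis, bars SE, filled where the edgeR adjusted p was under 0.05) of 20 carriers (y axis), the 10 that rose most and the 10 that fell most with COMBO, for SEL201, OTX015 and COMBO, each against UNTREATED. SLC25A42 lies at 0.51, 0.64 and 1.21, and SLC37A1 at -0.64, -1.54 and -1.79. The 3 comparisons share the UNTREATED libraries.

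What OTX015 changed on top of SEL201 was read from COMBO against SEL201. Here 29 solute carrier genes rose and 30 fell, beside 18.8% and 21.2% of all genes (40.1% in either direction). This comparison shares no library with OTX015 against UNTREATED. Of the 33 genes that rose with OTX015 alone, 21 also rose on top of SEL201, which is 63.6% of the first list and 72.4% of the second. Of the 34 that fell with OTX015 alone, 25 also fell, which is 73.5% and 83.3%, and 0 genes were called in opposite directions by edgeR. Across the 123 genes the changes had a Pearson r of 0.858 and a Spearman rho of 0.833, where genes are not independent replicates. Over all genes r was higher, at 0.906, so the likeness of both comparisons is not particular to solute carriers. The overlap of calls over all genes was not counted. SLC37A1 fell by 1.54 with OTX015 alone and by 1.16 on top of SEL201, SLC16A9 by 1.36 and 1.18, and SLC37A2 by 1.25 and 1.03. SLC30A3 rose by 0.79 and 0.90, SLC22A17 by 0.99 and 0.88, and SLC25A42 by 0.64 and 0.70. SLC24A2 fell by 0.86 on top of SEL201 (edgeR adjusted p = 1.96e-04), and SLC6A9 by 0.67 (adjusted p = 1.89e-05).

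**Figure D4:**
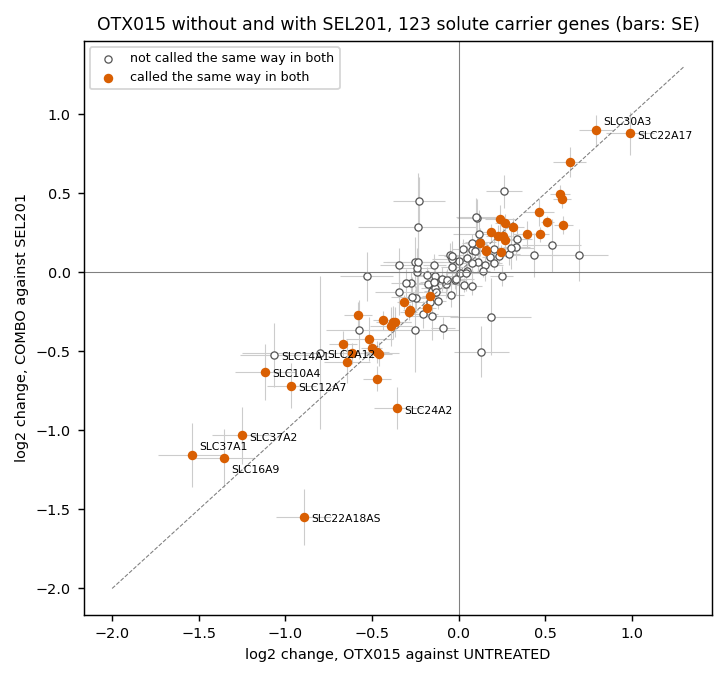
Log2 change of 123 solute carrier genes with OTX015 against UNTREATED (x axis) and with COMBO against SEL201 (y axis), with SE bars; filled points were called in the same direction in both, and the dashed line marks equal changes. There are 46 filled points, 21 up and 25 down, and SLC22A18AS lies far below the dashed line at -0.89 and -1.55.

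What SEL201 changed on top of OTX015 was read from COMBO against OTX015, and it was little at the threshold used. By edgeR, 4 solute carrier genes rose and 3 fell, beside 2.9% and 4.01% of all genes (6.91% in either direction), and with the replicate block 13 rose and 18 fell, beside 10% and 12.2%. The genes that rose were SLC25A42 (log2 change 0.57, SE 0.0924, edgeR adjusted p = 0.00236), SLC25A29 (0.29, adjusted p = 0.00359), SLC30A3 (0.38, adjusted p = 0.0334) and SLC27A1 (0.21, adjusted p = 0.0197). The genes that fell were SLC22A18AS (-1.13, edgeR adjusted p = 0.00233), SLC16A3 (-0.36, adjusted p = 0.0182) and SLC16A5 (-0.28, adjusted p = 0.0159). SLC25A42, SLC25A29 and SLC22A18AS held in every alternative tried, and the other 4 each lost the call without 1 library. SLC16A3 lost it without OTX015 replicate 1 or COMBO replicate 2 (adjusted p 0.0761 and 0.0706 in edgeR). SLC16A5 lost it without OTX015 replicate 1 or 2 or COMBO replicate 1 (0.0597, 0.0519 and 0.0691). SLC27A1 lost it without OTX015 replicate 3 or COMBO replicate 1 or 3 (0.0683, 0.0544 and 0.0596), and SLC30A3 without OTX015 replicate 2 or 3 or any COMBO replicate (0.126, 0.0939, 0.0579, 0.088 and 0.0922). Of the 14 genes that rose with SEL201 alone, 3 also rose on top of OTX015 (21.4% of the first list and 75% of the second). Of the 18 that fell, 3 also fell (16.7% and 100%). Pearson r of the changes was 0.598 over the 123 genes and 0.691 over all genes, whose overlap of calls was not counted.

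Whether the change with COMBO differed from the sum of both single changes was tested as an interaction. By edgeR 0 solute carrier genes passed, beside 0.21% of all genes above and 0.0699% below the sum (0.28% in all). At an unadjusted edgeR p under 0.05, 7 solute carrier genes lay above and 11 below the sum. The share of all genes at that looser threshold was not counted. DESeq2 called 1 gene, SLC7A2 (log2 -0.30, adjusted p = 0.0482), and the replicate block 5 above and 6 below the sum, beside 4.02% and 2.73% of all genes (6.75% in all). For SLC25A42 the interaction was 0.06, with a 95% confidence interval of -0.227 to 0.341. For SLC7A2 it was -0.31 (SE 0.0798), with an edgeR adjusted p of 0.151, or 4.65e-05 under the replicate block.

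Related genes outside the SLC symbols were looked at through lists. Their counts with COMBO stand beside 28.3% of all genes that rose and 29.6% that fell. Whether any list differs from those shares was not tested. Of 25 measured transporters of the same superfamilies that carry other symbols, 11 rose and 3 fell with COMBO. Among them were MPC1 and MPC2, the pyruvate carrier of the inner mitochondrial membrane, at log2 changes of 0.70 and 0.39 (edgeR adjusted p = 5.59e-09 and 1.04e-04), and the magnesium transporter relatives CNNM4 and CNNM3, at 0.74 and 0.62. Of 19 ABC transporters, which split ATP, 6 rose and 6 fell, with ABCB1, the drug efflux pump, at 1.16, ABCA3 at 1.35 and ABCC10 at 0.53, and ABCC2 at -1.37. Of 5 measured genes of glycolysis and lactate handling, ALDOC (0.59), ARRDC4 (0.51) and PDK3 (0.42) rose and PFKFB2 (-0.40) fell. Of 10 amino acid starvation and ATF4 target genes, 2 rose and 4 fell, among them SESN2 (0.32), JDP2 (-0.95), STC2 (-0.61) and PYCR1 (-0.58). Of 6 metal handling genes, the ferrireductase genes STEAP3 (-0.64), STEAP1 (-0.40) and STEAP2 (-0.33) and the metallothionein gene MT1X (-0.35), one of a family of near-identical genes, fell, while ATP7A and ATP7B had log2 changes of 0.03 and 0.15, not past the threshold (edgeR adjusted p = 0.703 and 0.0858), and ATP7B passed with the replicate block (adjusted p = 0.0234). HMOX1, SRXN1 and OSGIN1, the 3 measured glutathione and NRF2 targets, had log2 changes of -0.21, 0.11 and 0.19 (edgeR adjusted p = 0.174, 0.244 and 0.453), each past the threshold with the replicate block (adjusted p = 4.08e-05, 0.0471 and 5.62e-04). The 3 measured partner proteins of transporters, ABCD4, LMBRD1 and OSTM1, lay at -0.08, -0.10 and 0.02.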

How the data were processed

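The authors deposited RNA-seq as raw counts, genes by 12 libraries, in 1 table. The libraries were stranded and poly(A)-selected, per the labels' protocols. STAR 2.5.4b, featureCounts, SAMtools 1.9, Trimmomatic, FastQC, DESeq2 and the build hg19 are listed in the submitters' processing notes, without roles. For the counting, neither annotation nor strand setting is given in the sources used here. Genes in the table have mean counts from 78.667 to 9158.7, and others were not analysed here. Symbols were matched to GENCODE v29 for exon length, gene type and overlaps, and all 123 genes matched. With an exon of another gene, 59 overlap on the opposite strand and 19 on the same strand.

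Counts were fitted with edgeR 4.0.16 in R 4.3.3 (TMM, filterByExpr, quasi-likelihood, 4 group means over 12 libraries, 8579 genes, Benjamini-Hochberg). CPM values are TMM-scaled. Alternatives were DESeq2 1.42.0, RLE factors, a fit without the filter or with a stricter one (10 CPM in 3 libraries), a replicate block, the compared groups alone, leaving out each library, leaving out the libraries numbered 3 and, for levels, the longest transcript. Counts per class under left-out libraries were added after the data were seen. The steps were tested on simulated data.

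Members and lists were chosen with earlier results of these data known. Named genes are the 6 largest rises and falls against UNTREATED, the 4 in the other contrasts, up to 3 with the lowest p per class with COMBO and the 6 with the highest level per kb, and up to 4 genes per list. Of 12 carriers to be given whatever their p, 1 was measured, SLC16A3. Other genes named, and the CCAAT box, were chosen after their values were seen.

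Nothing in the labels says that replicates are separate cultures. The spread behind the p-values is that between libraries and may be technical. Within a group no pair looked like 1 library deposited again (chi-square per degree of freedom 6.34 or more). Same-numbered libraries deviated together, with correlations of 0.275 to 0.588 in 18 pairs against -0.477 to 0.199 in 36 other pairs, so the numbers pair the samples by the data and not by the labels. The main fit has no block. Blocked values are given beside counts of solute carrier genes that rose or fell in 1 comparison, where the block moves them by over 1.5 times. They are also given beside genes described as missing the threshold with COMBO that the block calls. The block lowered the biological coefficient of variation to 4.35%, against 7.92% without it.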

Additional observations from a re-analysis of the deposited data

Results flagged for a closer look

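In 11 genes the change with COMBO differed from the sum of the single-agent changes when the replicate number was a block (edgeR, adjusted over 8579 genes). Without the block each of them missed the threshold, with adjusted p-values from 0.151 to 0.815. No explanation was tested, and 6.75% of all genes passed the same test. Positive values mean a level above the sum.

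COMBO was above the sum for SLC13A5 by 0.69 (SE 0.198, edgeR adjusted p = 0.0296), SLC14A1 by 0.55 (adjusted p = 6.65e-06), SLC25A45 by 0.38 (adjusted p = 4.1e-04), SLC16A3 by 0.31 (adjusted p = 0.0427) and SLC12A7 by 0.25 (adjusted p = 0.00169). SLC14A1, SLC16A3 and SLC12A7 fell with each agent, and SLC14A1 was also called when the libraries numbered 3 were left out (0.57, edgeR adjusted p = 0.027). COMBO was below the sum for SLC7A5P1 at -0.62 (adjusted p = 0.0371), SLC7A2 at -0.31 (adjusted p = 4.65e-05), SLC47A1 at -0.27 (adjusted p = 0.0274), SLC26A11 at -0.26 (adjusted p = 0.0391), SLC27A1 at -0.23 (adjusted p = 0.0169) and SLC25A30 at -0.19 (adjusted p = 0.0154), all by edgeR with the block. SLC7A2, SLC27A1 and SLC25A30 rose with each agent. SLC7A5P1 is a pseudogene, and its reads may come from its parent gene.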

How the results depend on the processing

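Counts of genes that rose or fell stayed within 1.5 times the reported count in the alternatives tried, apart from those given here. With the replicate block, 24 rose and 31 fell with SEL201, beside 18% and 19.1% of all genes. In COMBO against OTX015, 13 rose and 18 fell, beside 10% and 12.2%. In the interaction 5 were above and 6 below the sum, beside 4.02% and 2.73%. The block gave 44 higher and 48 lower with COMBO and 39 and 45 with OTX015, within 1.5 times. For COMBO and OTX015 against UNTREATED the share of all genes under the block was not counted. DESeq2 gave 7 higher and 6 lower in COMBO against OTX015 and 1 below the sum in the interaction. Leaving out the libraries numbered 3 gave 2 higher and 5 lower in COMBO against OTX015 and 1 above the sum, and a fit of the compared groups alone gave 2 higher there. Shares of all genes were not counted under DESeq2, with libraries left out or with the compared groups alone. The cause of these shifts in counts was not tested.

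Leaving out 1 library at a time gave 11 to 14 higher and 11 to 14 lower with SEL201, 29 to 33 and 29 to 36 with OTX015, 35 to 38 and 33 to 38 with COMBO, 22 to 26 and 22 to 28 in COMBO against SEL201, 2 to 4 and 1 to 4 in COMBO against OTX015, and 0 in the interaction. Of 251 results for single genes, 3295 alternative values gave 3023 calls that stayed on their side of the threshold. A further 259 were lost, 13 were gained and 0 changed direction. All 8579 genes passed the filter, so the fit without it repeats the main fit and could change no call. Interaction results other than that of SLC16A3 entered because the block called them, so their calls gained under the block were fixed in advance. For SLC25 with COMBO, 10 to 11 rose and 2 to 3 fell without single libraries, and for SLC16 4 to 5 fell. The block gave 13 higher and 4 lower for SLC25. Levels per kb of the longest transcript put SLC50A1 at 243.2 and SLC25A17 at 138.8 CPM per kb, above SLC25A20 at 121.7. Counting precision limits the low genes, such as SLC2A12 with 13 counts in 1 library.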
